A study of Homo sapiens with 12 samples.

Results

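The medium concentration of 3-methylcholanthrene, 0.04 µg/mL, was compared with the control in TK6, an established line of human B lymphoblasts that serves in genotoxicity tests. The members were taken by the concentration in the sample labels: 3 control libraries and 3 medium libraries, 6 of the 12 libraries of the series, measured over every gene of the count table. Of its 50006 rows 12030 had enough counts to be tested. Cells from the JCRB Cell Bank were kept for 24 h with the compound at 0 (control), 0.0004 (low), 0.04 (medium) or 4 µg/mL (high), and polyadenylated RNA was sequenced from 3 libraries per concentration. The 6 libraries thus share the line, the time and the assay and differ by concentration. The labels give no solvent for the control and name no separate cultures for the libraries within a group. The p-values therefore reflect only how far libraries scatter within groups, which may be technical. For the main test of single genes that scatter was estimated over all 12 libraries of the series, low and high included.

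3-Methylcholanthrene is a polycyclic aromatic hydrocarbon carcinogen. It binds the aryl hydrocarbon receptor (AHR), which waits in the cytoplasm with HSP90, moves to the nucleus when bound, pairs with ARNT and switches on a battery of genes, CYP1A1 first among them. The cytochrome P450 enzymes made from such genes oxidise the compound to forms that bind DNA, and bulky DNA adducts can stabilise p53, which in turn activates CDKN1A, MDM2 and repair genes such as DDB2.

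No gene passed in the comparison. Of 12030 genes tested with edgeR's quasi-likelihood test 0 had an adjusted p below 0.05 (0% of genes; smallest adjusted p = 0.318), while DESeq2 called 9, limma voom 1 and limma-trend on log2(CPM + 1) 2. Among the genes called by these other methods, only EIF3CL, called by DESeq2, had no copy entry and lay on a main chromosome. An unadjusted p below 0.05 was found for 238 genes (1.98% of genes), 131 of them higher in medium (1.09%) and 107 lower (0.889%). All 3 medium libraries lay above all 3 controls for 622 genes (5.17%) and below them for 668 (5.55%), 10.7% of genes in both directions together. Those 2 counts were 392 and 999 on CPM without a composition factor. Levels below are CPM on edgeR's composition-corrected scale unless stated otherwise, and differences are log2 of medium over control with their SE. In edgeR's main fit of medium against control every gene named with a difference has an adjusted p of 0.998 unless another is printed. Differences of summed copy entries had an edgeR adjusted p of 0.999. Library totals were 9472660, 9472214 and 13650359 counts in control and 9163368, 13194442 and 10296847 in medium, so that 3 counts, the floor used for an undetected gene, stood for 0.220 to 0.327 CPM.

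The promoters of CYP1A1 and TIPARP are shown because they hold the letters to which AHR and ARNT are known to bind. Their genes are also among the AHR targets that the naming rule fixed. Both are the 250 bases before the start of the gene in the RefSeq promoter table of GRCh38.p14, written 5′ to 3′ on the strand of the gene, with each match to the core motif GCGTG on either strand in capitals. The CYP1A1 window is chr15:74725529-74725778, minus strand, and the TIPARP window, the first of its listed starts, is chr3:156674340-156674589, plus strand.
CYP1A1: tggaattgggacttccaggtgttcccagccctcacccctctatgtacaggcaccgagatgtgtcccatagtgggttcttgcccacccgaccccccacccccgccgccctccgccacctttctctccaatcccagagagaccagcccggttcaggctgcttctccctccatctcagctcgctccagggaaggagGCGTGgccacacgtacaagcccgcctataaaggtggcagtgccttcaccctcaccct
TIPARP: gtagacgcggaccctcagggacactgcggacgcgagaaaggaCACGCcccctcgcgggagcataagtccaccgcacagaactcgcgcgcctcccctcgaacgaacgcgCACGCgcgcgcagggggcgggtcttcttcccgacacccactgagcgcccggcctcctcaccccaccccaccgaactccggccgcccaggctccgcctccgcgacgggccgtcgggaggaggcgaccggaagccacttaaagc
The CYP1A1 window held 1 match and the TIPARP window 2, and the same length before NQO1 held 0. Before each of the later listed TIPARP starts it also held 0, and before the listed AHRR starts it held 1 and 2. At least 1 match was in 11313 of the 35116 promoters of the table (32.2%), so a match is a description of the letters and no sign of binding. In the remaining counts of this paragraph each tested gene is represented by its first listed start alone. Of the tested genes with a promoter in the table, 4220 of 9150 (46.1%) had a match. The 477 tested genes with 3 or more matches lay above control in 233 cases (48.8%) with a median difference of -0.0053, and the 4930 genes with 0 matches in 2485 cases (50.4%) with a median of 0.0017.

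The receptor system came first. CYP1A1 (chromosome 15, 74719542 to 74725528, GRCh38.p14), which oxidises polycyclic hydrocarbons, had 0, 4 and 0 counts in the control libraries and 0, 2 and 4 in the medium libraries. The groups overlapped at the floor of detection, and no fold is given. CYP1A2, its neighbour on the chromosome, had 0, 2 and 0 counts in control and 0, 2 and 3 in medium. AHR itself, CYP1B1, the repressor AHRR and the aldehyde dehydrogenase ALDH3A1 had 0 counts in all 6 libraries. So had the ferritin gene FTH1, which nearly all cells express, and a 0 in these files is therefore not read as absence of expression. FTH1 differs from most of these genes, since other entries cover 100% of its exon bases. They cover 97.2% of those of AHRR, but 4.18% for AHR and 0% for CYP1B1 and ALDH3A1. The part of such overlap in the 0 counts was not tested.

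TIPARP (chromosome 3, 156674590 to 156706770), an ADP-ribosyltransferase that dampens AHR, measured 31.0, 41.0 and 34.9 CPM in control and 29.6, 30.8 and 32.3 CPM in medium. The lowest control lay inside the medium range. Its difference was -0.20 ± 0.13, and the 95% interval ran from -0.49 to 0.0827, so that a doubling lies outside it. NQO1, a quinone reductase under AHR and NRF2, measured 146.8, 155.3 and 184.6 CPM in control and 121.8, 153.5 and 156.2 CPM in medium (difference -0.17 ± 0.23), with overlapping groups. Of the 20 genes of the AHR battery 10 were tested. For none of them did the groups stand apart, 5 lay above and 5 below control, and their median was -0.0268 where that of all tested genes was -0.00168, with 5984 of 12030 above. With 1 library left out the battery median ran from -0.101 to 0.0387. The largest positive difference among the tested battery genes was that of TNFSF13B, the B-cell survival factor BAFF, at 7.41, 5.03 and 5.44 CPM in control and 6.80, 6.34 and 8.33 CPM in medium (0.26 ± 0.30).

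Of the 12 tested genes whose proteins hold or assist the receptor, 3 had all medium libraries below all controls (5.55% of all tested genes did) and 0 had all above. Those named here, except SRC, were chosen after seeing their values. ARNT measured 35.8, 31.2 and 40.5 CPM in control and 25.2, 40.3 and 27.4 CPM in medium. The chaperone gene HSP90AB1 measured 3823, 3558 and 3345 CPM in control and 4106, 3737 and 3665 CPM in medium. The co-chaperone gene PTGES3 differed by -0.17 ± 0.18. SRC, a kinase held in the complex, had all 3 medium libraries (2.85, 3.73 and 4.46 CPM) below the controls (11.5, 32.5 and 4.78 CPM), but it has a copy entry and its level is uncertain. Of the 12 partners 6 lay above and 6 below control. In phase I and II metabolism 18 of 35 listed genes were tested and split 9 and 9, with a median of -0.00403.

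Genes of the p53 response lay on both sides of the control. CDKN1A (chromosome 6, 36676463 to 36687332), which encodes the cell cycle inhibitor p21, measured 169.4, 158.6 and 166.8 CPM in control and 169.8, 158.2 and 178.7 CPM in medium. The ranges overlapped almost fully, and the interval of its difference (0.03 ± 0.11) ran from -0.22 to 0.29. MDM2 (chromosome 12, 68808172 to 68850686), which marks p53 for destruction, measured 144.9, 134.3 and 155.0 CPM in control and 121.9, 129.5 and 116.2 CPM in medium. Every medium library lay below every control, and the difference was -0.24 ± 0.22. DDB2 (chromosome 11, 47214454 to 47239217), the p53 target that recognises damaged DNA for excision repair, measured 40.5, 39.3 and 33.9 CPM in control and 48.2, 48.4 and 45.9 CPM in medium. Every medium library lay above every control, a fold of 1.25 (0.33 ± 0.10; unadjusted p = 0.00693), and it ran from 0.26 to 0.37 with 1 library left out. Against the same control libraries it differed by 0.27 in low and 0.28 in high.

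**Figure D1:**
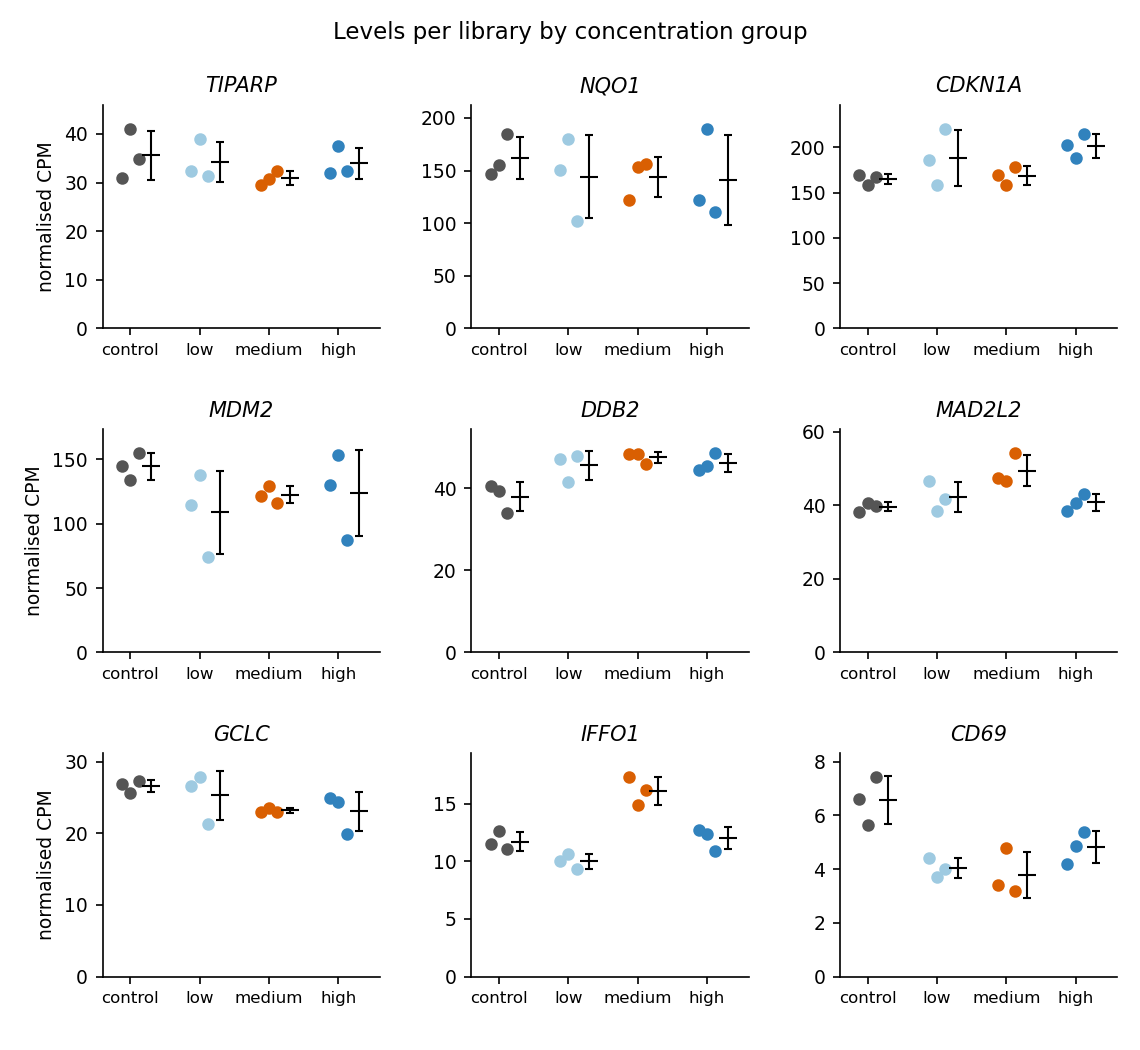
Levels in normalised CPM (vertical axes, from 0) of 9 genes in the 3 libraries of each concentration group (points), with the mean and SD of each group beside them. DDB2, MAD2L2 and IFFO1 lie above all controls in the 3 medium libraries, MDM2, GCLC and CD69 below, and TIPARP, NQO1 and CDKN1A overlap.

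In the p53 target list, 40 genes were tested: 18 had a higher and 22 a lower level in medium than in control, 3 with all medium libraries above all controls (5.17% of all tested genes) and 6 with all below (5.55%), and the median was -0.0197. CCNG2, a cyclin that slows the cycle, measured 2.34, 2.36 and 3.38 CPM in control and 0.438, 1.64 and 1.98 CPM in medium (-0.98 ± 0.46), and -0.57 without medium replicate 1. TRIM22, an interferon-inducible ubiquitin ligase, differed by -0.19 ± 0.09.

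Among the genes of the repair lists without a copy entry the smallest p-values were those of DDB2, MAD2L2 and NTHL1. MAD2L2, a subunit of the DNA polymerase zeta that copies past lesions, measured 38.3, 40.6 and 39.9 CPM in control and 47.5, 46.5 and 54.3 CPM in medium. The groups did not overlap (0.32 ± 0.10; unadjusted p = 0.00975). NTHL1, a glycosylase that removes oxidised bases, measured 28.4, 23.7 and 27.9 CPM in control and 31.8, 31.4 and 34.1 CPM in medium (0.28 ± 0.11). BARD1, the partner of BRCA1, lay lower at 47.8, 46.4 and 44.4 CPM in medium against 52.7, 51.0 and 58.5 CPM in control (-0.23 ± 0.11), and so did the polymerase subunit gene POLD3 (-0.22 ± 0.10). The lists as wholes stayed near the median of all genes. Nucleotide excision repair had 12 of 25 above control (median -0.0051), recombination and crosslink repair 14 of 30 (-0.0166), translesion synthesis 9 of 15 (0.0395) and mismatch and base excision repair 14 of 25 (0.0599, or -0.0274 without medium replicate 1). Damage signalling, the kinases and adaptors that sense breaks and stalled forks, had 15 of 20 below control with a median of -0.0646, or -0.0165 without control replicate 3. In it the mitotic brake gene WEE1 measured 41.4, 43.9 and 52.6 CPM in control and 32.3, 37.5 and 35.5 CPM in medium (-0.39 ± 0.29).

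Cell cycle genes were divided in the same way. TK1, the thymidine kinase whose locus serves as the mutation reporter in TK6 cells, measured 22.2, 24.4 and 22.9 CPM in control and 30.1, 30.4 and 25.7 CPM in medium, with no overlap (0.31 ± 0.10; unadjusted p = 0.0124). GINS2, part of the replicative helicase, differed by 0.25 ± 0.09, also with no overlap. Across G1/S and replication 15 of 36 tested genes lay above control (median -0.0337), and across G2/M and mitosis 19 of 33 (median 0.0182). HMMR, a spindle protein gene, had 138 CPM in the first control, 115 and 122 CPM in the others, and 148, 145 and 143 CPM in medium, with no overlap (0.22 ± 0.14).

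The single-entry genes with the smallest p-values in edgeR's main fit, over all 12 libraries with filtered genes, are named by direction. None of them passed in that fit. On the higher side stood EIF3CL, IFFO1, MRPL27, FGFRL1, NUDT2, DDB2, EXOG and FAM174A. IFFO1, an intermediate filament family gene that has been tied to DNA end positioning, measured 11.47, 12.62 and 11.03 CPM in control and 17.3, 14.9 and 16.2 CPM in medium (0.46 ± 0.13; unadjusted p = 0.00442). The groups did not overlap, and the difference ran from 0.41 to 0.52 with 1 library left out. MRPL27, a mitochondrial ribosome protein gene, differed by 0.36 ± 0.10, NUDT2, a dinucleotide hydrolase gene, by 0.78 ± 0.23, and EXOG, a mitochondrial nuclease gene, by 0.41 ± 0.12. FGFRL1 and FAM174A lay near the floor, at 0.203 to 0.609 CPM in control and 0.658 to 1.39 CPM in medium.

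On the lower side stood CD69, LZTS2, ZNF559, CAMK1, LOC107985923, ZNF595, MOB3B and UBE2F. CD69 (chromosome 12, 9752486 to 9760901), an early activation marker of lymphocytes, measured 6.60, 5.64 and 7.43 CPM in control and 3.40, 4.78 and 3.17 CPM in medium (-0.79 ± 0.23; unadjusted p = 0.00554). Every medium library lay below every control, and the low and high groups differed from the same controls by -0.70 and -0.45. CAMK1, a calcium-dependent kinase gene, measured 1.02, 0.923 and 0.809 CPM in control and 0.219, 0.299 and 0.397 CPM in medium (-1.54 ± 0.52). Every medium library lay below every control, and low and high differed from the same controls by 0.00526 and 0.41. ZNF595, a zinc finger gene, measured 10.2, 23.6 and 9.78 CPM in control and 5.92, 7.91 and 5.85 CPM in medium (-1.14 ± 0.38), and -0.60 without control replicate 2, the highest library.

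EIF3CL (chromosome 16, 28379581 to 28426418), almost the same in sequence as EIF3C, the gene of a translation initiation factor subunit, had the smallest p among single-entry genes. Its levels were 9.04, 9.95 and 9.85 CPM in control and 21.2, 31.0 and 27.97 CPM in medium, a fold of 2.78 (1.48 ± 0.30; unadjusted p = 0.000467). EIF3C, named for this relation after its values were seen, measured 37.5, 19.6 and 17.9 CPM in control and 15.2, 16.4 and 17.8 CPM in medium, so the genes lay on opposite sides of their controls. Of the counts of the pair EIF3CL took 19.4, 33.7 and 35.5% in control and 58.1, 65.4 and 61.2% in medium. With both summed, added after seeing the data, the levels were 46.5, 29.6 and 27.7 CPM in control and 36.4, 47.5 and 45.7 CPM in medium, which overlap (0.32 ± 0.30; edgeR adjusted p = 0.998). How reads that fit both genes were assigned is not given in the sources used here, and the levels of both are uncertain. DESeq2 called EIF3CL (adjusted p = 0.00654) where edgeR's main fit did not (0.998). Without a filter on low counts edgeR called it too (adjusted p = 0.0298), as it did with the control and medium libraries alone (0.0229).

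**Figure D2:**
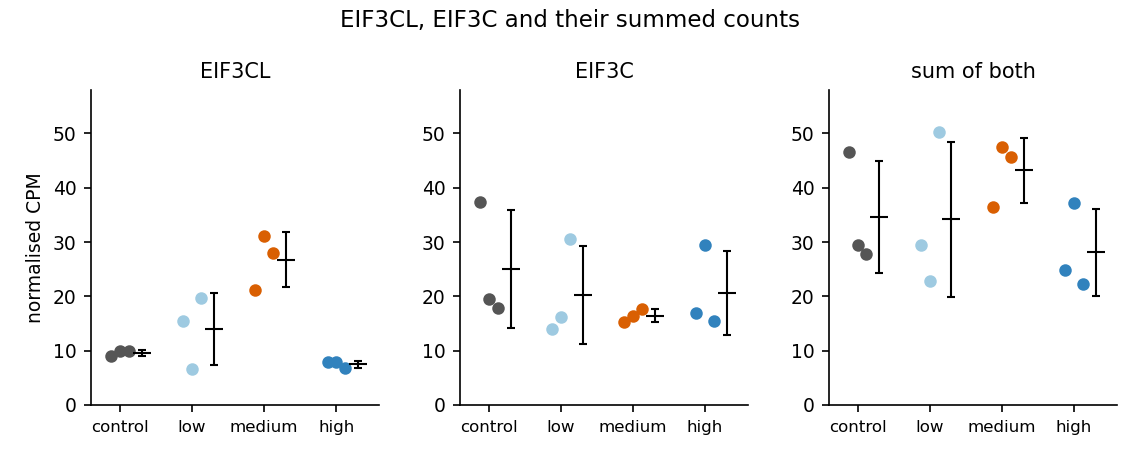
Levels in normalised CPM (vertical axes, from 0) of EIF3CL, of EIF3C and of their summed counts in the 3 libraries of each group (points), with mean and SD. EIF3CL lies at 21.2 to 31.0 CPM in medium and at 9.04 to 9.95 CPM in control, and the sums of both groups overlap.

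Genes with a copy entry held 198 of the 397 differences past 2-fold. The files list some genes more than once, and 805 of the tested genes (6.69%) have such a copy entry or lie on such a contig. Among them 74 (9.19%) had an unadjusted p below 0.05, against 164 of 11225 other genes (1.46%). At 10 CPM or more, 38 of 8016 genes lay past 2-fold, and 33 of these have a copy (17.2% of the 192 such genes, against 0.0639% of the others). The other 5 were EIF3CL, ZNF595, MALAT1, BCYRN1 and LOC105378925, the last 2 chosen after their values were seen. BCYRN1, a small RNA gene transcribed by RNA polymerase III, measured 196, 86.6 and 58.8 CPM in control and 426, 223 and 149 CPM in medium (1.23 ± 0.95). Its groups overlapped, and the first library was highest in each. MALAT1, a nuclear long noncoding RNA whose exons are 82.1% covered by other entries, measured 37.0, 17.1 and 8.68 CPM in control and 58.6, 32.4 and 46.2 CPM in medium (1.14 ± 0.78).

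The copy entry with the smallest p was GGNBP2_1, at 9.85, 11.3 and 10.4 CPM in control and 2.19, 0.896 and 0.793 CPM in medium (-3.04 ± 0.43; edgeR adjusted p = 0.318). With the counts of its main entry added, a step chosen after seeing the data, the second medium library stood at 9.86 CPM and the difference was -1.24 ± 0.72. PSMC4, a proteasome ATPase gene, measured 3.86, 27.90 and 29.04 CPM in control and 3.07, 2.16 and 2.38 CPM in medium. Its first control lay close to the medium libraries, and the sum of its entries gave the same picture (-3.01 ± 0.56). GTF2H2C_2, a relative of a subunit gene of transcription factor TFIIH, measured 0.147 to 0.406 CPM in control and 5.48 to 8.06 CPM in medium (4.73 ± 1.05, or 2.66 ± 0.45 summed). NIPA2_1 went from 3.54 ± 0.79 as a single entry to 0.48 ± 0.34 summed, and SLC37A4_1 from -1.01 ± 0.22 to -0.98 ± 0.21. GTF2H1, the nucleotide excision repair gene with the smallest p, also has a copy and measured 0.711, 1.85 and 3.75 CPM in control and 23.1, 1.87 and 19.6 CPM in medium, with the second medium library at the control level.

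**Figure D3:**
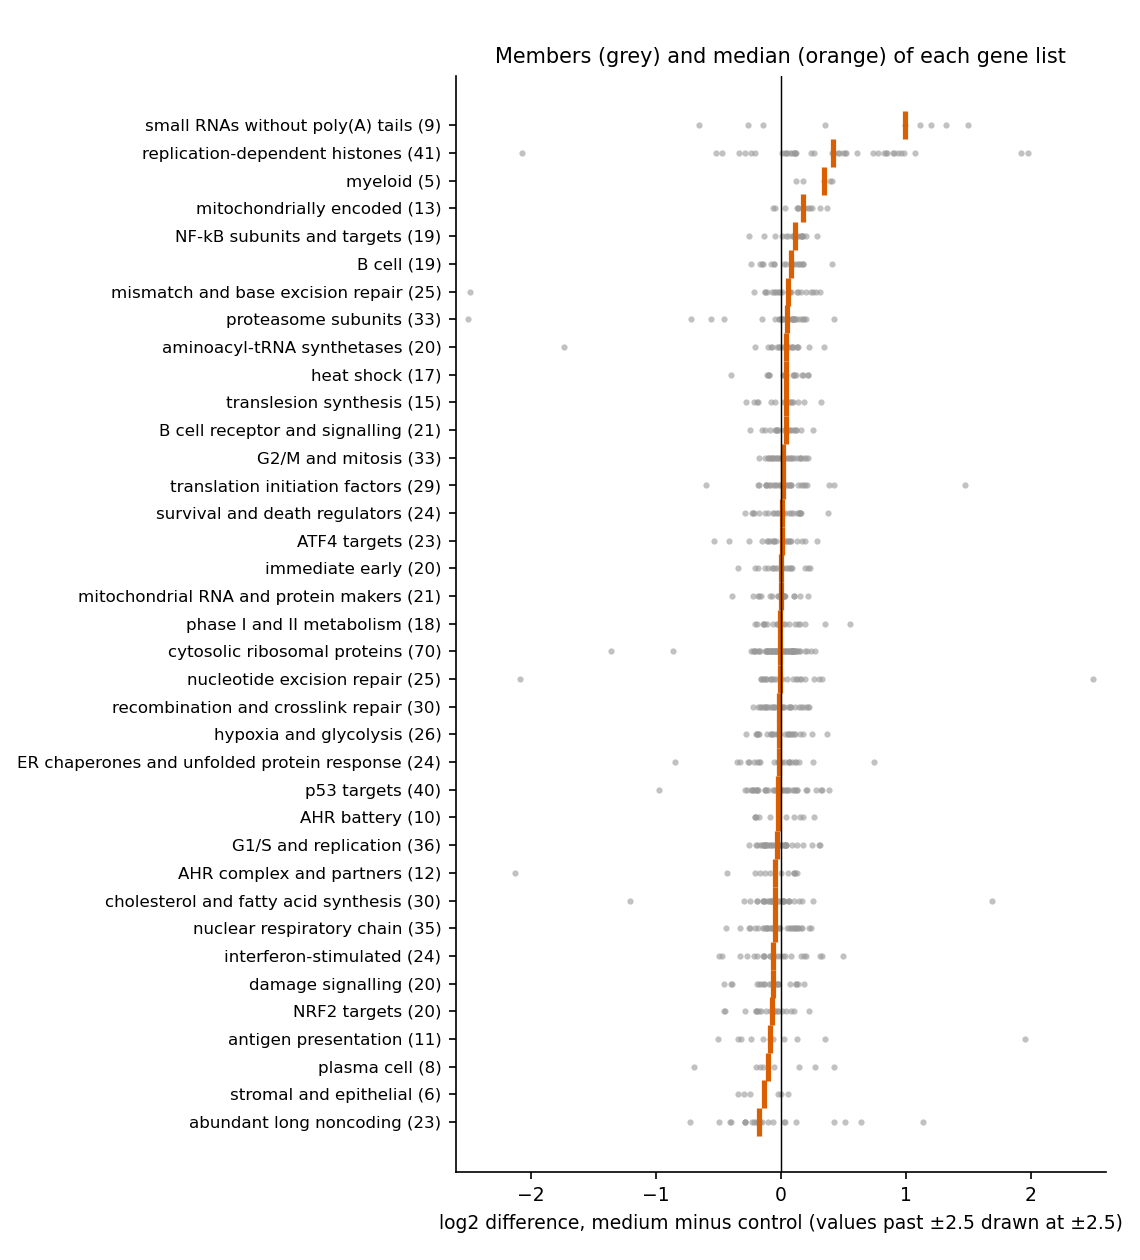
Log2 difference between medium and control (horizontal axis) of the tested members (grey points) and the median (orange) of each gene list with at least 5 tested genes, with the number tested in parentheses; values past 2.5 are drawn at 2.5. Most medians lie near 0. At the upper end are small RNAs (0.99), histones (0.42), myeloid markers (0.35, 5 genes) and mitochondrially encoded genes (0.18). At the lower end are the listed abundant long noncoding RNAs (-0.17).

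In the stress and signalling lists edgeR's main fit called no member, while DESeq2 called the proteasome gene PSMC4 (adjusted p = 0.000853), which has a copy entry. PSMC4 was also called by edgeR without a filter on low counts (adjusted p = 0.0111) and without control replicate 1 (0.00266). NF-kB subunits and targets, which report on the survival signalling of B cells, lay above control in 16 of 19 tested genes with a median of 0.11, which was 0.0408 without medium replicate 1. TNIP1, a brake on the pathway, measured 337, 333 and 289 CPM in control and 374, 354 and 353 CPM in medium (0.17 ± 0.09), and TRAF1, an adaptor gene, had 97.9, 87.3 and 93.8 CPM in control and 103, 102 and 101 CPM in medium (0.13 ± 0.08). Both stood clear of the controls. RELB, a subunit gene chosen after its values were seen, overlapped (0.29 ± 0.19).

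NRF2 targets, which answer to electrophiles and oxidants, lay below control in 15 of 20 tested genes with a median of -0.0711, or -0.0226 without control replicate 3. GCLC, the catalytic subunit of glutathione synthesis, measured 26.8, 25.6 and 27.3 CPM in control and 23.02, 23.58 and 22.91 CPM in medium (-0.20 ± 0.13), with no overlap. HMOX1, heme oxygenase, measured 12.4, 10.3 and 14.4 CPM in control and 6.14, 8.58 and 12.4 CPM in medium (-0.45 ± 0.27), with overlap. Heat shock genes lay above control in 12 of 17, among them DNAJA1 (0.22 ± 0.14), and ATF4 targets in 12 of 23. Unfolded protein response genes lay below in 13 of 24 and hypoxia and glycolysis genes in 14 of 26. Proteasome subunits lay above control in 23 of 33, 7 of them with all medium libraries above all controls (5.17% of all tested genes) and 2 with all below (5.55%), and their median was 0.0486. PSMC1 differed by 0.42 ± 0.22, but other entries cover 80.8% of its exons.

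Genes of translation showed no common direction. Of 70 tested cytosolic ribosomal protein genes 33 lay above control (median -0.00503). RPL13A (chromosome 19, 49487608 to 49492308), a large-subunit protein, was the member with the smallest p among those without a copy, with a mean of 1843 ± 36.9 CPM in control (SD, n = 3) and of 2175 ± 108 CPM in medium. The groups did not overlap, and its difference was 0.24 ± 0.08 (unadjusted p = 0.00957). EIF3G, another subunit of the same initiation factor as EIF3C, measured 228, 206 and 154 CPM in control and 254, 246 and 269 CPM in medium (0.39 ± 0.19). Interferon-stimulated genes lay below control in 15 of 24, with ISG15, a ubiquitin-like modifier, on the other side at 0.49 ± 0.23. Cholesterol and fatty acid genes lay below in 17 of 30 and antigen presentation genes in 7 of 11.

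Transcripts of mitochondria and transcripts without poly(A) tails had positive list medians. The 13 coding genes of the mitochondrial genome lay above control in 11 cases (median 0.18, 0.0914 without control replicate 2 and 0.34 without control replicate 3). ND3, a subunit of respiratory complex I, had the smallest p of them (0.37 ± 0.17). All mitochondrial genes took 15.66, 14.62 and 16.9% of counts in control and 18.9, 16.52 and 18.61% in medium, a difference of 2.29 percentage points (exact permutation p = 0.2, 2-sided, adjusted 0.5 over 3 shares; the smallest p that 3 against 3 allow is 0.1). The second medium library lay inside the control range. The 35 tested nuclear genes of the respiratory chain had a median of -0.0503, with 22 below control, and 0.0559 without control replicate 3.

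Replication-dependent histone genes, which are made in S phase and end in a stem-loop, lay above control in 34 of 41 tested genes with a median of 0.42, which was 0.16 without medium replicate 1. Their summed level was 111.7, 78.9 and 67.7 CPM in control and 149.1, 99.9 and 88.9 CPM in medium, so the groups overlapped. The members with the smallest p went both ways, H2AC14 at 1.07 ± 0.46 and H3C8 at -2.07 ± 0.91, both near the floor. Small RNAs without poly(A) tails summed to 41.4, 28.3 and 15.7 CPM in control and 93.2, 30.7 and 31.9 CPM in medium, and their median of 0.99 was 0.26 without medium replicate 1 and 0.0489 without a filter on low counts. The listed abundant long noncoding RNAs lay below control in 16 of 23 with a median of -0.17, which was -0.00554 without control replicate 3. Of all 1125 tested long noncoding RNA genes 647 lay above control, with a median of 0.0791. The mitochondrial 16S ribosomal RNA took 3.84, 2.18 and 1.43% of counts in control and 4.80, 2.73 and 3.13% in medium (exact permutation p = 0.4, 2-sided). The first library was the highest of its group in the histone, small RNA and 16S measures. The part of this library composition in the histone, mitochondrial and other list medians was not tested.

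**Figure D4:**
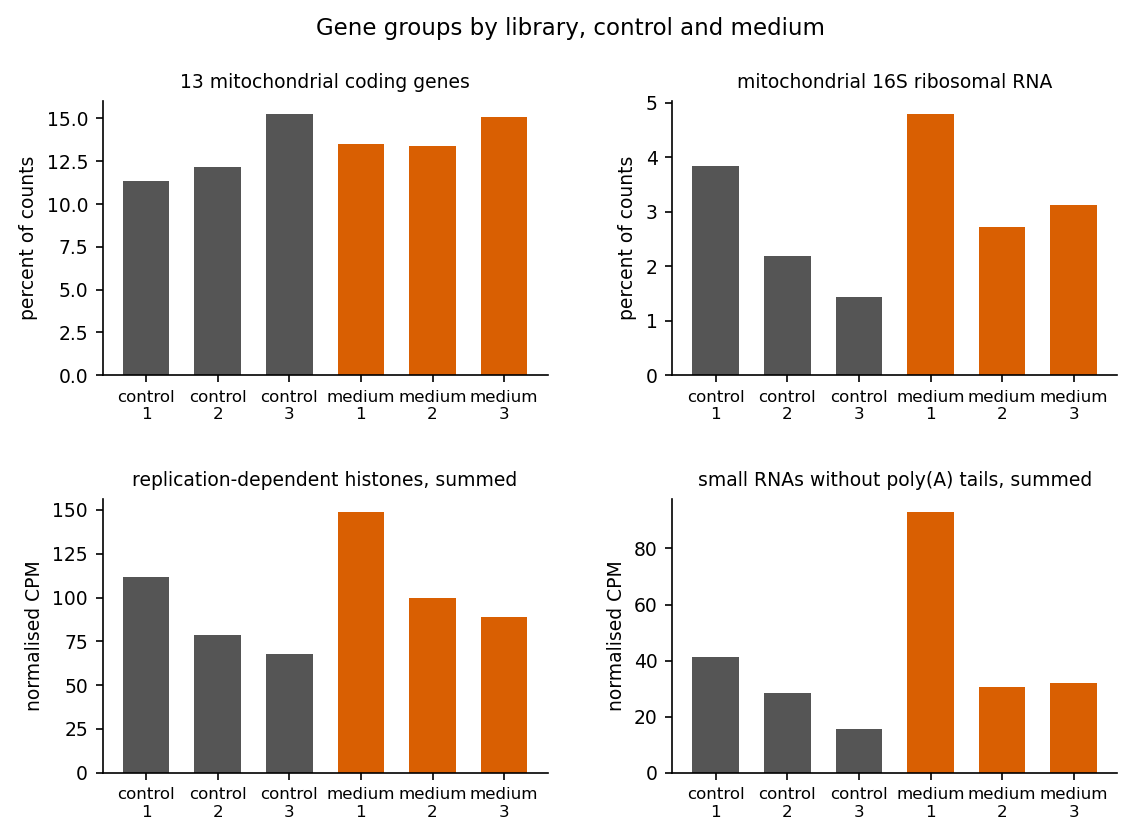
Share of counts (percent) of the 13 mitochondrial coding genes and of the 16S ribosomal RNA, and summed normalised CPM of histone genes and of small RNAs without poly(A) tails (vertical axes, from 0), with 1 bar per library. The first library of each group is highest in 16S, histones and small RNAs, and control and medium overlap in each panel.

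Differences also followed the base composition of the transcripts. Among 10357 tested genes with a GC value, divided into 5 groups of equal size by GC, the lowest had a median difference of -0.0451 and 39.5% of genes above control, and the highest had 0.0534 and 62.9%. Among the controls the highest-GC group stood at 0.0558, 0.00551 and -0.0551 from the control mean, and among the medium libraries at 0.071, 0.039 and 0.0748. Chromosome 19 had 526 of 810 tested genes above control, where 49.7% of all tested genes lay above. On it 70 genes had all medium libraries above all controls (5.17% of all tested genes) and 21 had all below (5.55%). The part of GC content in the results on single genes was not tested apart from removing its trend, which left 0 genes called.

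Among the 6 cell type marker lists that of B cells had the highest summed level. A 0 is again not read as absence. Of 20 B cell markers none was at 0 counts in all 6 libraries, and their summed CPM of plain library totals was 3664 to 4099 in control and 3447 to 3868 in medium. MS4A1, a B-cell surface protein gene named after seeing its values, differed by -0.05 ± 0.12. Of 10 plasma cell markers 1 was at 0, DERL3, and the list summed to 1067 to 1198 CPM in control and 972.9 to 1118 CPM in medium. Of 16 T and NK cell markers 9 were at 0 in all 6 libraries, CD3D, CD3G and CD8A among them, and the list summed to 10.5 to 16.4 CPM in control and 9.17 to 12.7 CPM in medium. Of 12 myeloid markers 4 were at 0, S100A8 and MPO among them, and the list summed to 24.4 to 26.2 CPM in control and 26.5 to 32.0 CPM in medium. The 5 tested myeloid markers had a median difference of 0.35, which was 0.0843 without medium replicate 1. Of 10 erythroid markers 7 were at 0, the globin genes HBA1 and HBB among them (8.57 to 12.99 CPM in control, 8.79 to 13.2 CPM in medium). Stromal and epithelial markers summed to 590.5 to 606.3 CPM in control and 577.7 to 610.3 CPM in medium, and 6 of 14 were at 0. Of these VIM alone averaged 422 CPM in control and 438 CPM in medium on the composition-corrected scale. In bulk RNA fewer cells of a type and less RNA per cell cannot be told apart.

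Medium was also set against its neighbours. Between medium and low 0 genes passed with edgeR (195 at an unadjusted p below 0.05), and between medium and high 0 passed (smallest adjusted p = 0.478, 225 at an unadjusted p below 0.05). All 3 medium libraries lay above the 9 others for 22 genes (0.183%) and below them for 16 (0.133%), a count added after seeing the data. EIF3CL, IFFO1, RPL13A and GPI, which has a copy entry, were among the first, and CAMK1, ZNF559 and LOC107985923 among the second. IFFO1 differed from low by 0.68 and from high by 0.42, and EIF3CL from low by 0.94 and from high by 1.83. The differences from control of low and high share the control libraries with those of medium, and for IFFO1 they were -0.22 and 0.04.

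Few genes were seen in one group alone. At least 3 counts in every medium library and 0 in every control were found for 8 genes, and the reverse for 2. AKR7A3, an aldo-keto reductase that acts on aflatoxin dialdehyde, had 8, 6 and 3 counts in medium, and 1 count in low and 6 in high over their libraries. LOC124901038 had 6, 5 and 4 counts and LSM2_4, a copy entry, 3, 13 and 6. HLA-DOA_4, also a copy entry, had 5, 3 and 10 counts in control, and GABRR2, a neurotransmitter receptor subunit gene, 4, 4 and 5. With 1 library left out the counts of such genes were 14 to 22 and 5 to 11.

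The size of difference that these libraries could show depended on the level. The median SE was 0.20 on the log2 scale over all tested genes. For 8859 genes (73.6%) the whole 95% interval lay within 2-fold of control, among them TIPARP, CDKN1A, MDM2 and DDB2. This held for 94.4% of the 5990 genes at 10 to 100 CPM and 96.4% of the 2026 genes above, but for 38.3% of the 3267 genes at 1 to 10 CPM and 0.402% of the 747 genes under 1 CPM, the range in which CYP1A1 fell below the filter.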

How the data were processed

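RNA of 12 TK6 libraries was isolated with an RNeasy kit and sequenced as polyadenylated RNA, per the labels' protocols. HISAT2 2.2.1, featureCounts 2.0.6, fastp 0.23.4, MultiQC 1.27 and GRCh38.p14 are the tools and build listed, without roles, in the submitters' processing notes. How strand and multiply aligned reads were treated is not given in the sources used here. Raw counts per gene in 50006 rows were deposited by the authors, with the CPM of each library, that is the count scaled to a total of 1000000 with no composition factor.

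Genes were filtered with filterByExpr (12030 kept), scaled by TMM and modelled by quasi-likelihood in edgeR 4.0.16 under R 4.3.3 over all 12 libraries by group, with 8 residual degrees of freedom and Benjamini-Hochberg adjustment at 0.05. The script was tested on simulated data. Alternatives used limma 3.58.1, DESeq2 1.42.0, other filters and scalings, a replicate block and each library left out. The members, gene lists (33 pathways and 6 marker lists) and naming rule were chosen with earlier results of these data known. Named are 7 fixed AHR and p53 genes, up to 8 single-entry genes per direction and up to 5 copy entries by smallest p, up to 2 per list, and up to 3 per direction seen in 1 group only; genes outside this rule are marked, and some named by it are not reported here. Promoters came from RefSeq, and floors cover counting error only.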

Additional observations from a re-analysis of the deposited data

How the results depend on the processing

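edgeR called 0 genes with DESeq2 size factors, without a composition factor, with the stricter filter, without genes with a copy, with copies summed, with the GC trend removed (the last 2 chosen after seeing the data) and with the replicate block. It called 7 without a filter on low counts, 6 with the control and medium libraries alone and 0 to 2 with 1 library left out. Both of the 2, PSMC4 and ZNHIT3_1, came without control replicate 1. EIF3CL was among the 7 and among the 6, and the others in both had a copy entry. DESeq2 called 9, limma voom 1, limma-trend on log2(CPM + 1) 2 and on log2(CPM + 0.1) 0. Against low, 0 to 1 genes were called with 1 library left out. Non-overlapping genes numbered 1075 to 2234 above and 998 to 2218 below with 1 library left out, since fewer libraries must stand apart, and 392 above on plain CPM. Genes seen in medium alone numbered 14 to 22 and in control alone 5 to 11 with 1 library left out. CDKN1A turned to -0.002512 without a composition factor, -0.002687 and -0.002702 with limma-trend (+ 1 and + 0.1), -0.002734 with the GC trend removed and -0.006705 without medium replicate 3 (to 0.07698 with 1 library left out). FDFT1 turned to 0.08791 with copies summed and 0.3823 without control replicate 1 (from -1.624), and ITGAM to -0.04685 without medium replicate 1 (to 0.6677). The causes were not tested. Same-numbered libraries deviated from their group means with correlations of 0.221, 0.0446 and 0.0477 (2 of 3 best with their own number), so the numbers were not taken to pair the libraries, and with the block 0 genes were called. The first libraries of both groups hold the most 16S, histone and small RNA counts, and 3 libraries a group limit every comparison.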
